A study of Mus musculus with 19 samples.

Results

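The genes described here encode voltage-gated sodium, potassium and calcium channels and the further potassium channels and subunits that share the Kcn prefix, measured in cultured mouse hippocampal neurons after 6 h of NMDA receptor blockade. A gene was included when its name in the array files matched Scn with a number and a or b, Kcn, Hcn, Cacna1, Cacna2d or Cacnb. Scn2a, which the files list under its former symbol and which that pattern misses as written, was included too. The Cacng genes were excluded. The files listed 118 such genes on 192 probes, of 27575 genes on 41174 probes in all. A probe was kept where its red signal stood well above background in 4 or more of the arrays, which left 101 channel genes on 152 probes, among 19198 genes tested. Just inside that limit were probes of Kcnj8 on 4 arrays, Cacna1i and Scn10a on 5 and Kcne2 on 6. Scn10a was read from another, brighter probe. Just outside the limit were probes of Kcnk7 and Kcnn3 on 3. The 17 listed genes with no kept probe included Cacna1f, Kcnd1, Kcne3, Kcne4, Kcnh7, Kcnj1, Kcnj14, Kcnk16, Kcnk5, Kcnk7, Kcnmb1, Kcnn3, Kcnv2, Scn11a, Scn7a and Scn9a. The Kcn prefix also covers inward rectifiers, two-pore channels, calcium- and sodium-activated channels and auxiliary subunits, which were not counted here as voltage-gated pores. Of the 101 genes, 44 were counted by symbol as pore-forming voltage-gated subunits, a count that leaves out Kcnma1 and Kcnu1 of the activated group.

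Dissociated hippocampal neurons, 21 days in vitro, received vehicle (5 arrays), 100 µM AP5 (5 arrays), 100 nM NVP-AAM077 (4 arrays, here NVP) or 1 µM of the compound titled Ro25 (5 arrays). AP5 competes with glutamate at NMDA receptors of all subunit types, and NVP also competes with it but favours those containing GluN2A. The labels give Ro25 a number other than that of the widely used GluN2B antagonist of the same prefix, so its identity is uncertain. Doses differed between the compounds, so their values stand side by side. Every array set neuron RNA in Cy5 (red) against a universal mouse reference RNA in Cy3 (green), with no dye swap, so each level below is a log2 ratio of neurons over reference. The labels do not say that replicates came from separate cultures, and p-values therefore measure only the spread between these arrays, which may be technical. In such bulk RNA, fewer cells of a type and less RNA per cell cannot be told apart.

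Most voltage-gated channels open on depolarization, whereas HCN channels open on hyperpolarization. Sodium channels drive the rising phase of the action potential, potassium channels of the Kv families repolarize the membrane and set firing frequency, and calcium channels couple depolarization to transmitter release and to signalling towards the nucleus. Auxiliary subunits set how many channels reach the membrane and how fast they gate. In hippocampal pyramidal cells, A-type potassium channels in dendrites damp incoming excitation, and small-conductance calcium-activated channels lie near NMDA receptors in spines.

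Promoter windows are shown for 5 genes on which the AP5 results below turn and whose windows were at hand: Kcne2, Kcnc4, Kcna6 and Kcnj9, which were higher with AP5, and Kcna4, which was lower. Each is the 250 bases before an annotated start in RefSeq on GRCm38.p6, written 5′ to 3′ on the gene's strand. Capitals mark the CRE half-site TGACG on either strand (CGTCA on the other) or, in Kcnj9, a match to the MEF2 motif.
Kcne2 (chr16:92292139-92292388, plus strand): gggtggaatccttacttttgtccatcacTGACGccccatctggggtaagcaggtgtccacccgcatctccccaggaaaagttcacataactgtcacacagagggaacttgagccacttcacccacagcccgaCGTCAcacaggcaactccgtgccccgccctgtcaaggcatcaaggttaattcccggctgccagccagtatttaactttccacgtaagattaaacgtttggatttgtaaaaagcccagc
Kcnc4 (chr3:107458899-107459148, minus strand): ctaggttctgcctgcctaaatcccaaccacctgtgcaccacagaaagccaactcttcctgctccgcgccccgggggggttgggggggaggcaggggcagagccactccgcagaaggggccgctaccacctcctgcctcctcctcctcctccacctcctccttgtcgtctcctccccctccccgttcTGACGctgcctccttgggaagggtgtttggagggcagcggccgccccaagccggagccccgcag
Kcna6 (chr6:126740675-126740924, minus strand): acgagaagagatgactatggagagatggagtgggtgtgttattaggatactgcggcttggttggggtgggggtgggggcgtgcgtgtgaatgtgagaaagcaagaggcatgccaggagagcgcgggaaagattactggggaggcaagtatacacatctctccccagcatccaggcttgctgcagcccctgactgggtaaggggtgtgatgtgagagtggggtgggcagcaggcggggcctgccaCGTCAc
Kcnj9 (chr1:172329323-172329572, minus strand): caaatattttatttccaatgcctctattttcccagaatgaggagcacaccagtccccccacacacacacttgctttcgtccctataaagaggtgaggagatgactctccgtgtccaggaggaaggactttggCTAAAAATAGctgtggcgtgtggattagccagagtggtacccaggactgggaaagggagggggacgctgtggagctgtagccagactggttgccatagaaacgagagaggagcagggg
Kcna4 (chr2:107290339-107290588, plus strand): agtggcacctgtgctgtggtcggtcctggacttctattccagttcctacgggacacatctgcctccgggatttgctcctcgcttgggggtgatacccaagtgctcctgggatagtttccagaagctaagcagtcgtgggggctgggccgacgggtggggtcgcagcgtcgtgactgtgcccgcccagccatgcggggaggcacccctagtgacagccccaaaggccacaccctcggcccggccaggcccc

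A window was at hand for 73 of the 101 genes and for 15 of the 25 that differed with AP5. A gene counted when any of its windows held the motif, whereas the share over 32851 windows counts each window. Genes with several windows can thus raise the members' share, and the 2 shares below are not like for like. The half-site TGACG, searched on both strands, lay in 16 of the 73 (21.9%) and in 17.8% of 32851 windows of the same length. Of the 13 higher genes with a window, 4 held it (Kcna6, Kcnc4, Kcne2 and Kcnn1), and of the 2 lower genes 0 did. The full element TGACGTCA, which contains the half-site, was found in 0 of the 73 and in 1.55% of all windows. The MEF2 motif lay in 2 of the 73 (2.74%), against 2.92% of all windows. The GC box GGGCGG, not capitalised above, lay in 46 of the 73 (63%) and in 32.7% of all windows. These are matches of letters and not sites.

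Channel transcripts were abundant in the neurons relative to the reference. In the vehicle arrays 90 of the 101 genes (89.1%) had a mean ratio above the reference, against 56.4% of all genes tested, and their median log2 ratio was 1.18 against 0.10. The sodium channel beta subunits had a median log2 ratio of 4.45 over 3 genes. The Kv1 to Kv4 pore subunits had a median of 2.29, and all 15 lay above the reference. A ratio to the reference also depends on the reference, so it does not rank channels by abundance.

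With AP5, 25 of the 101 genes (24.8%) differed from vehicle at an adjusted p under 0.05 in limma, where 18% of all genes did. Of these, 20 (19.8%) were higher, against 10.8% of all genes, and 5 (4.95%) were lower, against 7.23%. The groups' arrays did not overlap for 17 of the 101 genes (16.8%), against 11.9% of all genes. The count depends on how spots marked by the extraction software were treated, a choice that the planned design did not state and that was settled after the files had been seen, following an earlier treatment of these data. With marked spots left out before the normexp background correction the count was 25. With feature marks alone left out it was 7. With normexp fitted to all spots and marked spots left out afterwards it was 1. That call was Kcne2, which passed the filter on dim probes mainly through AP5 arrays. In that last setting 24 of the 25 genes kept their direction, the median size of their log2 change was 0.26 in place of 0.40, and the median standard error was 0.26 in place of 0.09. The fitted red noise SD then reached 522 on array Ro25 2, which is in neither of the 2 groups compared. On AP5 arrays it then reached at most 57 (AP5 5) and on vehicle arrays at most 24.4 (vehicle 5). With marked spots left out it was at most 19.4 on any array. The deposited log ratios, from which marked spots were also left out, gave 27 calls. Of these, 18 were shared in direction, and Kcnn2 was called the other way. The authors' deposited table gave 22 calls, 20 shared in direction. It holds fewer probes (20674) and lacks Kcna6 and Scn2a of the 25. Slide is tied to treatment, since no slide held both AP5 and vehicle arrays. With slide as a fixed block 0 of the 101 were called, at a median standard error of 0.22, and 19 of the 25 kept their direction.

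In these ratios, genes of high ratio rose with AP5 in general, so each change is also given against the trend over all genes at like ratio. The log ratios of all genes were spread wider on AP5 arrays (SD 1.65 to 1.71) than on vehicle arrays (SD 1.52 to 1.62). Whether that general rise is one of expression or of array scale was not tested. The 101 genes had a median log2 change of 0.13, the trend at their ratios had a median of 0.10, and the median beyond it was 0.02. Over all genes the median change was 0.01. With the trend removed from each array before the fit, 16 channel genes were called, 8 higher and 8 lower, of which 13 were among the 25. With log ratios brought to one spread per array 9 were called, 1 higher and 8 lower, and with the red channel alone 10 were, 2 higher and 8 lower. The median change of the 101 genes was then -0.15 and -0.03. Of the 20 higher genes, 6 kept a positive change at one spread and 15 in red alone. All 5 lower genes stayed called as lower with the trend removed, at one spread and in red alone, although the deposited log ratios turn Kcnn2. Kcne2, which passed the filter mainly through AP5 arrays, was called higher in the same settings. Removing the trend or bringing arrays to one spread lowers genes of high ratio with AP5, so these settings could hardly end their falls. With the trend removed Kcna4 went from -0.77 to -1.03, and Kcnk6, below the reference, from -0.94 to -0.85. With slide as a fixed block, or with normexp fitted to all spots, 0 of the 5 stayed called, though all 5 stayed negative. The rises below are for unscaled ratios, and most of them turn sign when arrays are brought to one spread.

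**Figure D1:**
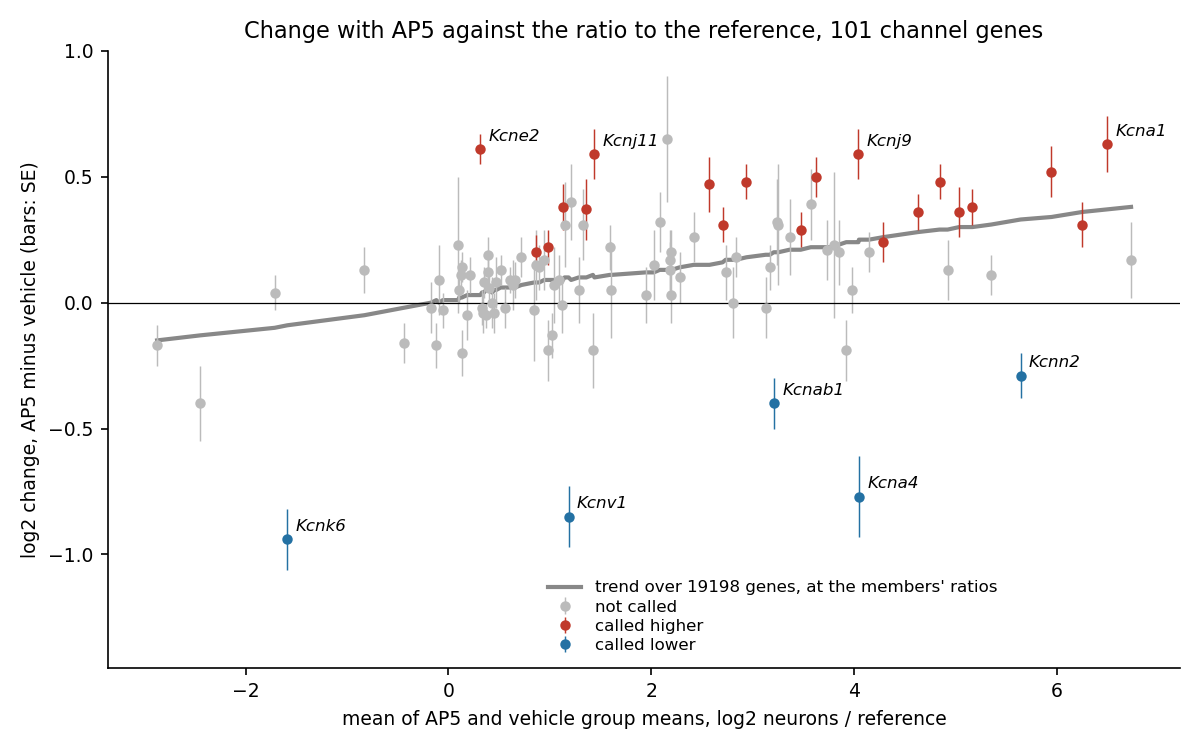
Log2 change with AP5 minus vehicle (y axis, bars are the standard error) against the mean log2 ratio to the reference (x axis) for the 101 channel genes, with the trend over all genes tested as a grey line. Most of the 20 higher genes lie near or above the rising line, while Kcna4, Kcnv1, Kcnk6, Kcnab1 and Kcnn2 lie well below it; at one spread per array 6 of the 20 keep a positive change.

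The largest falls were in potassium channel genes. Kcna4 encodes Kv1.4, an A-type channel that inactivates fast. Its log2 ratio was 3.98, 3.45, 3.43, 3.33 and 4.12 on AP5 arrays 1 to 5, and 4.16, 4.71, 4.65, 4.37 and 4.29 on vehicle arrays 1 to 5. Every AP5 array lay below every vehicle array, with AP5 1 and AP5 5 closest to them. The difference was -0.77 (SE 0.16, adjusted p = 0.00241, limma), a 1.71-fold fall, and it was -1.03 beyond the trend. The probe lies on chromosome 2 at 107098756 to 107098815, plus strand, in mm8. The green reference channel of Kcna4 also differed between these groups, by -0.44 (adjusted p = 0.00129, limma), and in red alone the change was -1.62 (adjusted p = 2.07e-05).

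Kcnv1 encodes Kv8.1, an electrically silent subunit that modifies Kv2 channels. Its AP5 arrays read 0.79, 0.86, 0.62, 0.71 and 0.81, and its vehicle arrays 1.40, 1.61, 2.06, 1.72 and 1.28. The groups did not overlap, and the AP5 arrays were the tighter group. The difference was -0.85 (SE 0.12, adjusted p = 9.44e-05, limma), and its second probe gave -0.64. In the reference channel Kcnv1 differed by 0.00.

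Kcnk6 encodes TWIK-2, a two-pore leak channel, and was among the few channel genes below the reference. Its AP5 arrays read -2.05, -2.05, -2.20, -2.25 and -1.74, and its vehicle arrays -1.23, -1.11, -0.84, -1.29 and -1.11. The groups did not overlap. The difference was -0.94 (SE 0.12, adjusted p = 2.22e-05, limma), the largest fall among the 101 genes. Its reference channel rose by 0.12 (adjusted p = 0.0249, limma).

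Kcnab1, the Kvbeta1 subunit that speeds inactivation of Kv1 channels, changed by -0.40 (SE 0.10, adjusted p = 0.00966, limma). Its AP5 arrays ran from 2.86 to 3.15 and its vehicle arrays from 3.24 to 3.56, with no overlap, but its second probe gave 0.07. Kcnn2 encodes SK2, a small-conductance calcium-activated channel. It changed by -0.29 (SE 0.09, adjusted p = 0.0357, limma), with AP5 arrays from 5.42 to 5.58 and vehicle arrays from 5.52 to 6.00, which overlap. Its second probe gave -0.51, its reference channel differed by -0.33 (adjusted p = 0.00083), and its call was kept in 3 of 10 fits that each left out 1 array. The deposited log ratios gave it the opposite sign, at 0.60 (adjusted p = 0.0084, limma), so its direction depends on the processing.

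Kcne2 encodes MiRP1, a small auxiliary subunit of several potassium channels. It was called under each treatment of marked spots, but it passed the filter on dim probes mainly through AP5 arrays. With that filter set at 15 arrays it was not tested. Its AP5 arrays read 0.77, 0.50, 0.60, 0.62 and 0.59, and its vehicle arrays 0.12, -0.04, 0.02, -0.14 and 0.06. All 5 AP5 arrays lay above every array of the other groups, where the highest value was 0.28. The gene was well above background on 5 of 5 AP5 arrays and 0 of 5 vehicle arrays, so its red signal was at least 1.56-fold higher with AP5 (adjusted p = 1.4e-06 for the fitted ratio, limma). Of the 6 arrays on which it passed the filter on dim probes 5 were AP5 arrays, so it was measured at all only through the group where it was high, and its call is a description. That bound sets the AP5 mean against the dimmest signal well above background on each vehicle array, or the probe's own signal where higher, after loess and Aquantile scaling per channel. Its reference channel differed by 0.04.

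**Figure D2:**
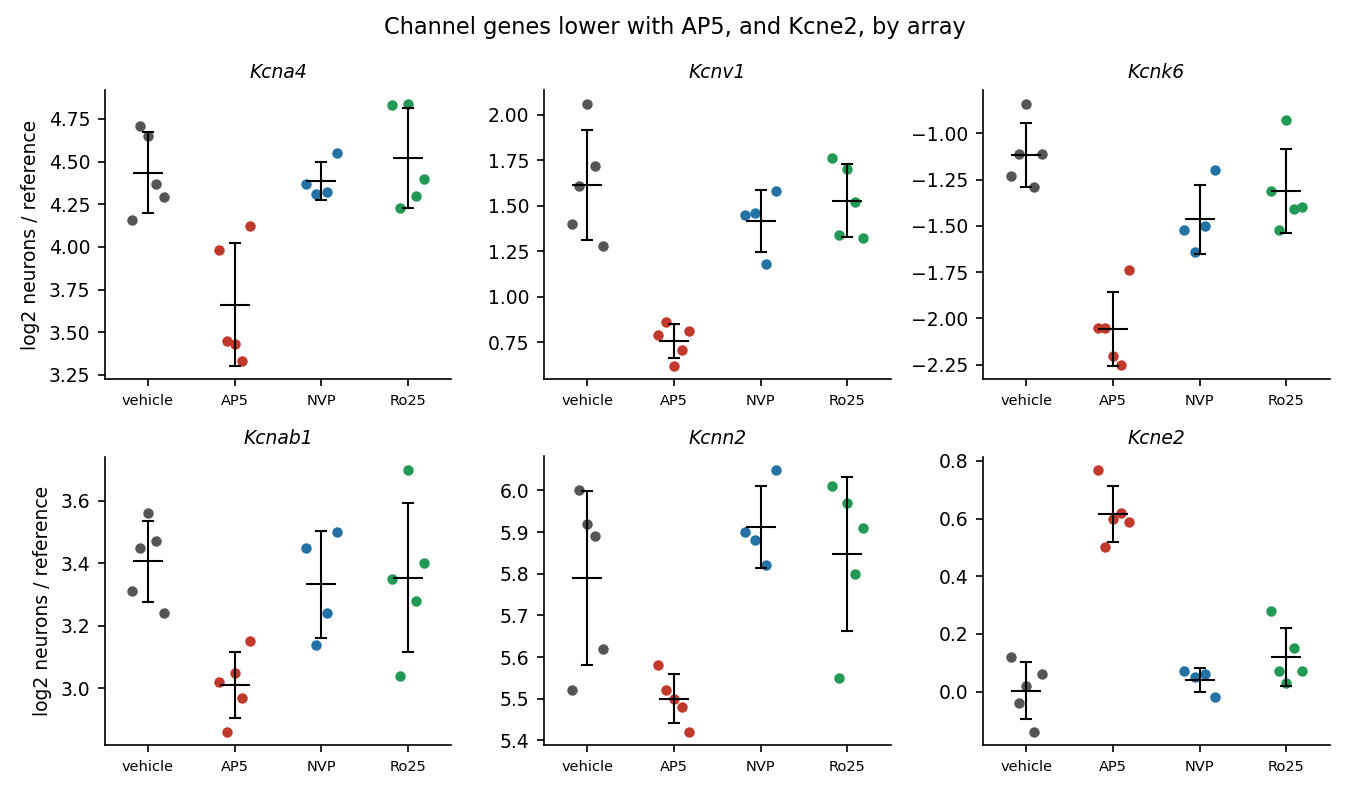
Log2 ratio of neurons over reference (y axis) on each array by treatment (x axis) for 5 genes lower with AP5 and for Kcne2; points are arrays, bars are mean and SD. AP5 arrays lie below all vehicle arrays for Kcna4, Kcnv1, Kcnk6 and Kcnab1, overlap them for Kcnn2 and lie above them for Kcne2.

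Among sodium channel pore subunits, 2 of 7 were higher with AP5 and 0 lower, against 10.8% and 7.23% of all genes. All 7 changes were above 0, but at one spread 3 of the 7 were positive, as in red alone. Scn8a encodes Nav1.6, the main channel of the mature axon initial segment. Its AP5 arrays read 6.34, 6.04, 6.07, 6.38 and 6.21 and its vehicle arrays from 5.42 to 5.90. The groups did not overlap, and the difference was 0.52 (SE 0.10, adjusted p = 0.00144, limma), with 0.20 from its second probe. In red alone Scn8a changed by 0.08 (adjusted p = 0.82, limma), and its reference channel changed by -0.23 (adjusted p = 0.0666, limma). Scn2a, which encodes Nav1.2, ran from 5.24 to 5.48 with AP5 and from 4.67 to 5.15 with vehicle. Its difference was 0.38 (SE 0.07, adjusted p = 0.00156, limma), its 3 probes ranged from 0.04 to 0.38, and red alone gave -0.06. Of the 3 beta subunits 2 were higher (against 10.8% of all genes), Scn3b (0.36) and Scn2b (0.31). Scn2b was called in 7 of 10 fits that left out 1 array. In red alone Scn3b changed by 0.01 and Scn2b by 0.08. The reference channel of Scn3b changed by -0.26 (adjusted p = 0.0467, limma). Beyond the trend Scn2a and Scn3b were each at 0.08 and Scn2b at -0.04, so these changes were close to those of genes of like ratio.

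The Kv1 to Kv4 pore subunits had 6 of 15 genes higher and 1 lower, against 10.8% and 7.23% of all genes. At one spread 0 of the 15 were called higher. Kcna1 encodes Kv1.1, a channel of axons, and its AP5 arrays ran from 6.64 to 6.99 and its vehicle arrays from 5.84 to 6.54. The groups did not overlap, and the difference was 0.63 (SE 0.11, adjusted p = 0.000714, limma). Kcna6 (Kv1.6) was higher by 0.48 and Kcnc4 (Kv3.4, a fast-activating channel) by 0.48, both without overlap. In red alone Kcna1 changed by 0.26, Kcna6 by 0.33 and Kcnc4 by -0.01, while the reference channel of Kcnc4 changed by -0.27. Kcnd3 (Kv4.3, an A-type channel) was higher by 0.38 and Kcna2 by 0.20, and Kcna2 was called in 2 of 10 fits that left out 1 array. In red alone Kcnd3 changed by 0.04 and Kcna2 by 0.16. Kcna1 and Kcna6 neighbour each other on chromosome 6 with Kcna5, which was at 0.17 (adjusted p = 0.353, limma). Their relative Kcna4, described above, was the one gene of the 15 called lower.

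Among inward rectifiers 4 of 12 were higher and 0 lower, against 10.8% and 7.23% of all genes, but 0 were called higher at one spread. Kcnj9 encodes GIRK3, a subunit of channels opened by G proteins. Its AP5 arrays read 4.43, 4.24, 4.29, 4.39 and 4.35 and its vehicle arrays 3.51, 3.98, 3.87, 3.89 and 3.50. The groups did not overlap, the difference was 0.59 (SE 0.10, adjusted p = 0.000318, limma), and a second probe gave 0.37. Kcnj11 encodes Kir6.2, the pore of ATP-sensitive channels. Its AP5 arrays ran from 1.42 to 2.07 and its vehicle arrays from 0.98 to 1.28, a difference of 0.59 (SE 0.10, adjusted p = 0.000425, limma) that was 0.49 beyond the trend. Kcnj12 was higher by 0.37 (called in 4 of 10 fits that left out 1 array, and -0.41 under the slide block). Kcnj10, the Kir4.1 channel of astrocytes and the neighbour of Kcnj9 on chromosome 1, was higher by 0.36. In red alone Kcnj9, Kcnj11, Kcnj12 and Kcnj10 changed by 0.22, 0.25, 0.15 and -0.04. Mean astrocyte marker ratios over 17 of 17 markers were 3.45 ± 0.53 (SD, n = 5) with AP5 and 3.28 ± 0.43 (SD, n = 5) with vehicle. Of these markers 2 were higher, against 10.8% of all genes, and their part in the Kcnj10 value was not tested.

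The calcium- and sodium-activated channels had 2 of 10 genes higher and 1 lower, against 10.8% and 7.23% of all genes. Kcnt1 (Slack, a sodium-activated channel) was higher by 0.50 (SE 0.08, adjusted p = 0.000282, limma), although its 3 probes ranged from -0.04 to 0.50. Kcnn1, which encodes SK1, was higher by 0.31. Of the 7 silent subunits, Kcns2 was higher by 0.22 (called in 4 of 10 such fits) and Kcnv1 fell. Among calcium channels, Cacna1h, a T-type pore, was higher by 0.47 and its 4 probes ranged from 0.14 to 0.47. Cacna2d3, an alpha2delta subunit, was higher by 0.29, but its reference channel differed by -0.29 and red alone gave -0.12.

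In the fit with 25 calls, 18% of all genes were called with AP5, and the next counts are from that fit. No gene was called among 4 HCN, 4 Kv7, 6 ether-a-go-go, 3 P/Q-, N- and R-type, 2 L-type or 4 calcium channel beta genes. Their smallest p-values belonged to Hcn2 (0.22), Kcnq5 (0.32), Kcnh3 (0.31), Cacna1b (0.15), Cacna1s (-0.40) and Cacnb1 (-0.20), with adjusted p from 0.0774 to 0.497 in limma. The interval for Kcnq5 ran from -0.02 to 0.67 and that for Cacna1s from -0.72 to -0.08, so changes of some size are not excluded. A p that misses the threshold does not show that these genes were unaffected.

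**Figure D3:**
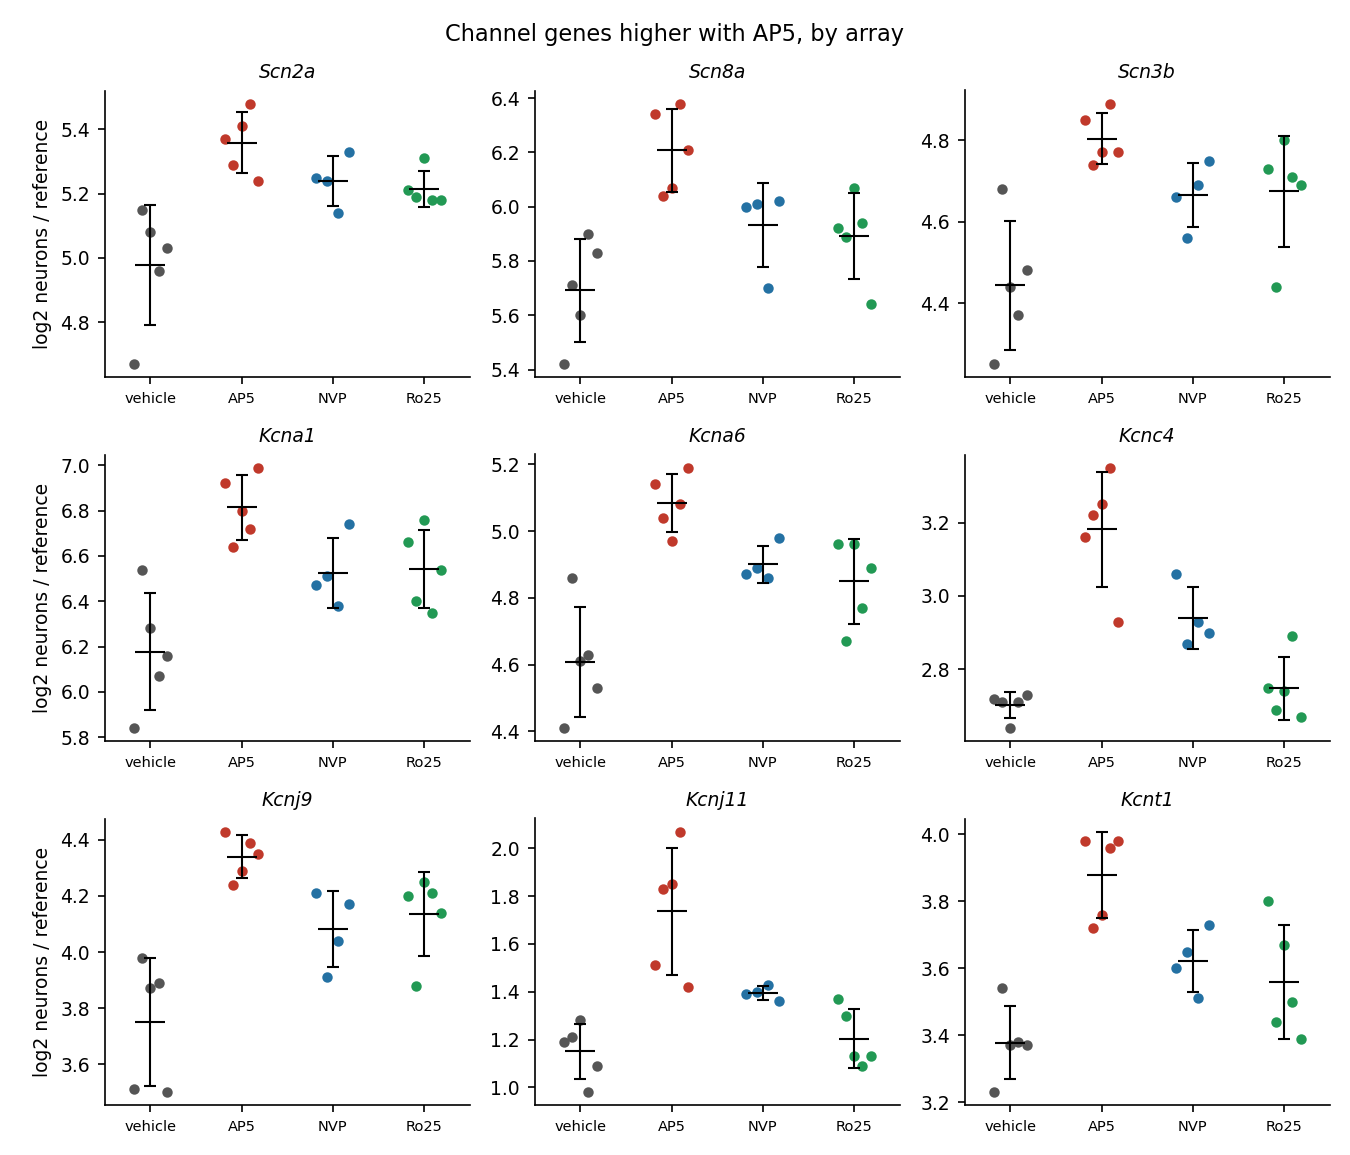
Log2 ratio of neurons over reference (y axis) on each array by treatment (x axis) for 9 genes higher with AP5; points are arrays, bars are mean and SD. The AP5 arrays lie above all vehicle arrays in each of the 9 panels, with NVP and Ro25 means in between; at one spread per array Kcnj11 alone of the 9 keeps a positive change with AP5.

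With NVP 0 of the 101 genes were called in limma, where 0% of all genes were, and 24 had an unadjusted p under 0.05 (23.8%, against 8.28% of all genes). Their median change was 0.13, with a median trend of 0.06, and 83 of 101 (82.2%) were above 0, against 55.8% of all genes, but the median turned to -0.14 at one spread. The arrays did not overlap for Cacna1i, Cacnb4, Kcnc1, Kcnc4 and Kcnj11, all higher (4.95%, against 1.65% of all genes in that direction and 2.75% in either). Cacna1i, read from 1 probe, was well above background on only 2 of 4 NVP and 1 of 5 vehicle arrays, so its values lie near the floor. With Ro25 0 genes were called, where 0% of all genes were, and 11 had an unadjusted p under 0.05 (10.9%, against 6.16%). Their median change was 0.06, which turned to -0.25 at one spread, and Scn2a was the one gene without overlap (0.99%, against 0.813%). All 7 sodium channel pore genes were above 0 with each antagonist, with medians of 0.31 for AP5, 0.24 for NVP and 0.12 for Ro25, but at one spread 3, 2 and 1 of them were, in red alone 3, 5 and 4, and with normexp fitted to all spots 5, 7 and 0. The 3 comparisons share the vehicle arrays. Kcna4 changed by -0.05 with NVP and 0.08 with Ro25, Kcnv1 by -0.20 and -0.08, and Kcnk6 by -0.35 and -0.20, none of them called. Kcne2 was well above background on 0 of 4 NVP, 1 of 5 Ro25 and 0 of 5 vehicle arrays, so no difference is given for it.

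**Figure D4:**
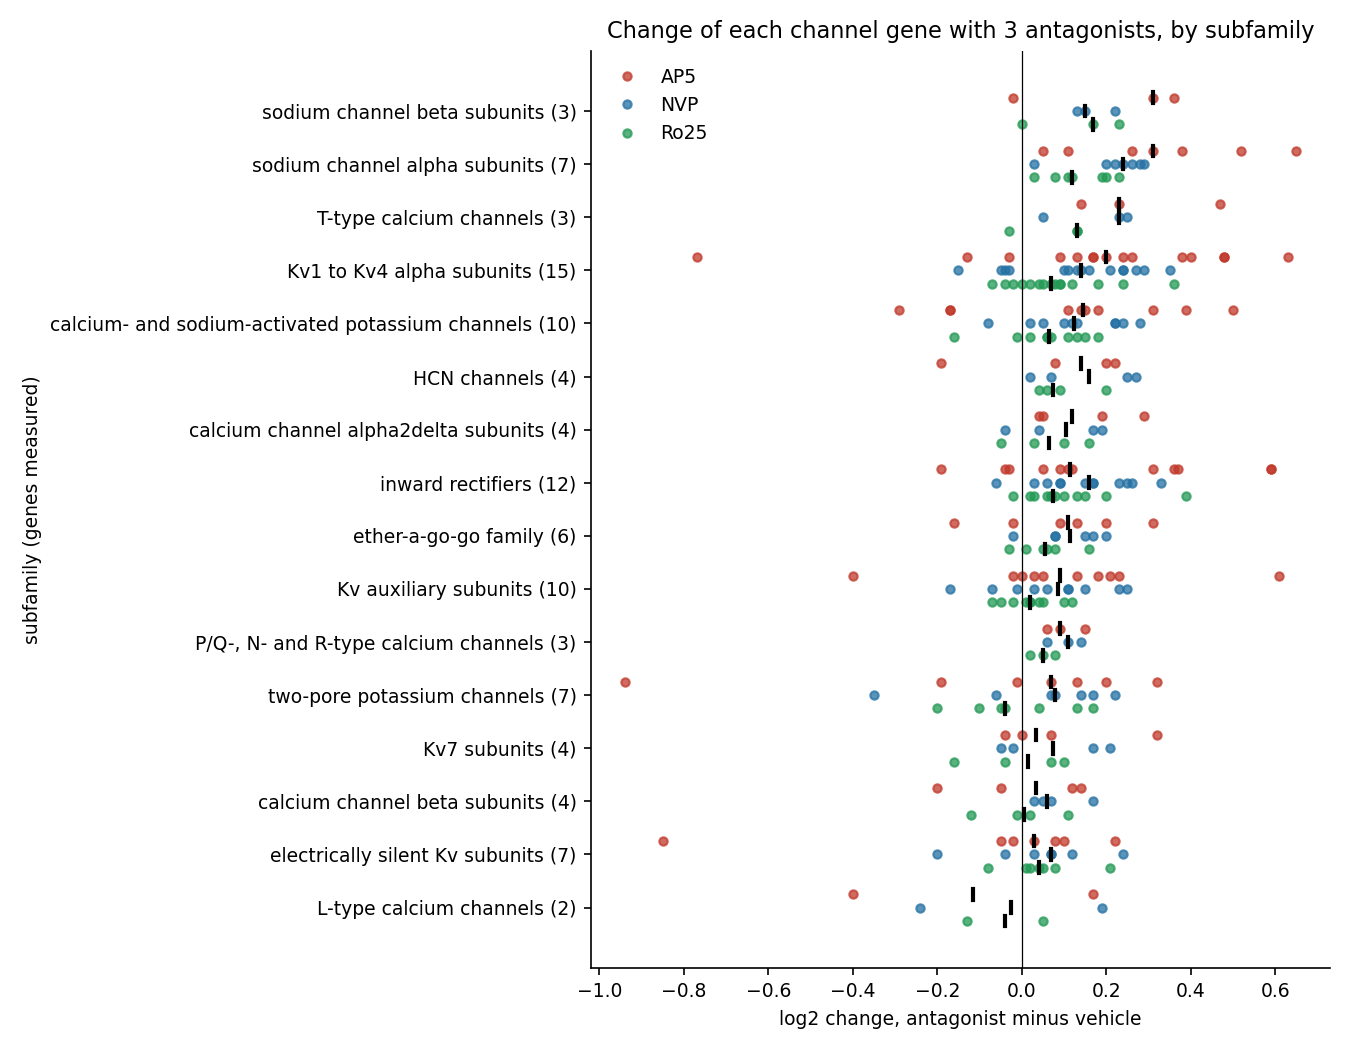
Log2 change of each channel gene (x axis) with AP5, NVP and Ro25 minus vehicle, by subfamily (y axis, with the number of genes); points are genes and black bars medians. The AP5 points spread widest, and the points far to the left are Kcnk6, Kcnv1 and Kcna4; at one spread per array the medians over all 101 genes turn to -0.15, -0.14 and -0.25.

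AP5 arrays were also set against the arrays of the other antagonists, which differ from AP5 in dose. Against NVP 5 of the 101 genes (4.95%) were called, where 4.26% of all genes were. Kcne2 (1 of 101, against 2.89% of all genes higher) was at least 1.55-fold higher in red signal, with 0 of 4 NVP arrays well above background, and 4 genes (against 1.36% lower) were lower, Kcnv1 (-0.66), Kcna4 (-0.72), Kcnk6 (-0.59) and Kcnn2 (-0.42). The 1 slide that held AP5 (1 array) and NVP (2 arrays) gave the same direction for all 5. Those arrays are among the ones that gave the calls, so this agreement is no separate support. They also differ in astrocyte marker mean, at 2.60 on AP5 5 against 3.66 on NVP 1 and 3.92 on NVP 3. The call of Kcnn2 turned to 0.21 with the deposited log ratios. Without array NVP 4 the count was 3. It was 1 under each setting for marked spots, 1 with slide as a fixed block and 2 at one spread. Against Ro25 11 genes (10.9%) were called, where 6.06% of all genes were, 5 higher (against 4.11%) and 6 lower (against 1.95%). They included Kcne2 (0.49, with 1 of 5 Ro25 arrays well above background), Kcnc4 (0.43), Kcnj11 (0.53), Kcnk6 (-0.75), Kcnv1 (-0.77) and Kcna4 (-0.86). The count was 7 without AP5 3 or without AP5 4, and 6 without Ro25 5. It was 2 under each setting for marked spots, 0 with slide as a fixed block and 2 at one spread. Between NVP and Ro25 0 genes were called, where 0% of all genes were, and 3 had an unadjusted p under 0.05 (2.97%, against 1.57%). The calls of Kcne2 against NVP and Ro25 are descriptions, since it passed the filter mainly through AP5 arrays.

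Partners of these channels were read from 4 lists, beside a share of 10.8% of all genes higher with AP5. Of the 8 partners named here, 7 turned sign at one spread. With AP5, 5 of 16 measured axon initial segment and sodium channel partners were higher, among them Cntn2 (0.59) and Ank2 (0.33), and 2 of 17 potassium channel partners, Dpp6 (0.32) and Dlg2 (0.30). Of 19 calcium channel partners and Cacng genes 4 were higher, among them Cacng3 (0.32), Cacng4 (0.25) and Cacng5 (0.43), and of 20 sodium pump and leak genes 5 were higher, among them Fxyd6 (0.49). In none of the 4 lists was a gene lower. Their medians beyond the trend were 0.06, -0.09, 0.05 and 0.06. With NVP and Ro25 0 genes of the 4 lists were called in limma.

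Neuron markers had a mean log2 ratio of 4.66 ± 0.07 (SD, n = 5) with AP5 and 4.40 ± 0.14 (SD, n = 5) with vehicle. Of these markers 4 of 12 were higher, against 10.8% of all genes. Their part in the channel values was not tested. Microglia and fibroblast or vessel markers lay below the reference in every group. Array medians of the red signal lay between 135.5 and 177.8. The reference channel itself differed between AP5 and vehicle arrays for 5.19% of all genes.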

How the data were processed

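Per the file headers, the intensity of each spot was extracted with Feature Extraction 9.5.3.1, whereas version 11.0 of Agilent Feature Extraction is given in the submitters' processing notes. The deposited log10 ratio was background-subtracted and dye-normalized, per the file headers. The authors' table holds log2 values whose centring is not given in the sources used here. Here, marked spots were left out, normexp (offset 50) and loess within arrays were applied, and a gene took its kept probe of highest mean brightness. Genes with under 2 values in a group were dropped. Tests between groups used limma (version 3.58.1, R 4.3.3), in 1 two-sided model over 19 arrays, with Benjamini-Hochberg adjustment over all genes. Leaving marked spots out before normexp was not in the planned design and was settled after the files had been seen. The script was tested on simulated data, where it recovered 99% of changes of 1 and 88% of changes of 0.5 on the log2 scale for AP5 minus vehicle over 18296 genes, with 13 false calls among 200. The simulated noise was independent between genes and arrays, with no slide effect, shared batch or difference in array scale. These rates therefore do not give the error rate of the AP5 calls on the real arrays. On the real arrays the median standard error was 0.08, and the number of arrays limits the precision. Some genes are not reported here. Members and lists were chosen with earlier results of these data known. Named genes were those of smallest p per comparison and subfamily, the brightest per subfamily, and called partners; further names, such as Kcna2, Kcnj12 and Kcns2, were chosen after their values were seen. Alternatives changed normalization, filters, probes, slide, replicate number and arrays. Vehicle 5 had no usable spot for Hcn2, Kcnj8, Kcnma1 and Scn1a, NVP 3 for Kcne1l and AP5 1 for Kcnj15.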

Additional observations from a re-analysis of the deposited data

Results flagged for a closer look

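Single arrays stood apart from the rest of their group for 11 of 188 combinations of gene and group, by the gap to the nearest array relative to the group's range. Chance gives about 1 in 20. Ank2 was at 4.32 on vehicle 1, where the other arrays of the group ran from 4.67 to 4.80. Cacnb1 was at 0.34 on Ro25 4, where the other arrays of the group ran from -0.01 to 0.08. Cacnb1 was at 0.06 on vehicle 2, where the other arrays of the group ran from 0.24 to 0.28. Cacng3 was at 0.23 on vehicle 5, where the other arrays of the group ran from 0.83 to 1.00. Dlg2 was at 4.09 on Ro25 5, where the other arrays of the group ran from 4.39 to 4.44. Fxyd6 was at 5.17 on vehicle 2, where the other arrays of the group ran from 4.68 to 4.80. Kcna2 was at 0.60 on Ro25 5, where the other arrays of the group ran from 0.82 to 0.84. Kcnc4 was at 2.64 on vehicle 3, where the other arrays of the group ran from 2.71 to 2.73. Kcnn1 was at 2.41 on Ro25 5, where the other arrays of the group ran from 2.64 to 2.71. Scn2a was at 5.31 on Ro25 3, where the other arrays of the group ran from 5.18 to 5.21. Scn8a was at 5.70 on NVP 3, where the other arrays of the group ran from 6.00 to 6.02. In the reference (green) channel, which received the same RNA on every array, 8 channel genes differed in limma when AP5 arrays were set against vehicle (7.92%, against 5.19% of all genes): Cacna2d3, Hcn4, Kcna4, Kcnh3, Kcnj4, Kcnk6, Kcnn2 and Scn3b. The largest differences were Kcnj4 at -0.76 and Hcn4 at -0.49.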

How the results depend on the processing

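Between-array spread, slide and marked spots moved the counts most. The number of channel genes called for AP5 minus vehicle (25) was 9 with log ratios brought to one spread, 10 with the red channel alone, 16 with the trend removed and 0 with slide as a fixed block. Settings for marked spots were added after seeing the data. With marked spots included it was 1, with them left out after normexp 1, with feature marks alone left out 7, and with vehicle 5 left out as well 1, 1 and 5. For AP5 minus NVP (5) these were 2, 9, 8 and 1, then 1, 1, 1, 1, 1 and 1, and 12 with the astrocyte mean as a covariate. For AP5 minus Ro25 (11) the count was 2 at one spread, 0 with the slide block, 7 with the 2 groups alone, and 2 under each of the 6 settings for marked spots. Leaving out 1 array in turn gave 20 to 28, 3 to 7 and 6 to 12 calls, and 0 for the other 3 comparisons, which stayed at 0 under every setting. The replicate block gave 27, 4 and 9 calls. With group means taken out, same-numbered arrays of different groups had a mean correlation of -0.09 over 27 pairs, from -0.62 to 0.76. Pairs with different numbers had a mean of 0.03 over 108 pairs, from -0.73 to 0.83. The arrays lowest in astrocyte markers were AP5 5 (2.60), NVP 4 (2.63), Ro25 3 (2.44) and vehicle 3 (2.56). Whether arrays of different groups share a culture was not tested, and the model holds no term for it. The cause of the other changes was not tested. Log ratios brought to one spread turned the sign of Kcnc4 -0.15, Kcna6 -0.58, Kcnt1 -0.28, Kcnj9 -0.26, Kcna1 -0.79, Scn8a -0.81, Scn2a -0.76, Scn3b -0.66, Kcnn1 -0.27, Cacna1h -0.05, Cacna2d3 -0.46, Kcnj10 -0.74, Scn2b -1.06, Cacna1s 0.14, Kcnq5 -0.38, Cacna1b -0.30, Kcnh1 -0.27, Kcnmb4 -1.08, Cntn2 -0.13, Ank2 -0.73, Dpp6 -0.39, Dlg2 -0.66, Cacng4 -0.03, Cacng5 -0.31, Fxyd6 -0.62 (AP5 minus vehicle), Cacna1d -0.27, Hcn3 -0.57, Kcnab2 -0.32, Kcnf1 -0.35, Kcnk1 -0.64 (NVP minus vehicle), Kcnj4 -0.67 (Ro25 minus vehicle). Red channel alone turned the sign of Kcnc4 -0.01, Scn2a -0.06, Cacna2d3 -0.12, Kcnj10 -0.04, Hcn2 -0.03, Kcnh3 -0.08, Kcnq5 -0.05, Cacna1b -0.03, Kcnmb4 0.00, Dpp6 -0.12, Dlg2 -0.13, Cacng4 -0.04 (AP5 minus vehicle), Kcnf1 -0.13 (NVP minus vehicle), Kcnj4 -0.10 (Ro25 minus vehicle). Slide as a fixed block turned the sign of Kcnc4 -0.01, Scn3b -0.01, Kcnd3 -0.09, Kcnj10 -0.44, Cacna1s 0.46, Kcnq5 -0.09, Cacna1b -0.08, Kcnj12 -0.41, Ank2 -0.09, Cacng3 -0.06 (AP5 minus vehicle), Kcnab2 -0.03, Kcnk1 -0.09 (NVP minus vehicle), Kcnj4 -0.11 (Ro25 minus vehicle), Kcnc4 0.00 (AP5 minus Ro25). Trend with ratio removed turned the sign of Scn2b -0.05, Kcnmb4 -0.20 (AP5 minus vehicle). Marked spots included, and vehicle 5 left out turned the sign of Scn2b -0.01, Cacna1b 0.00, Kcnh1 -0.02, Kcnmb4 -0.03, Dlg2 -0.01 (AP5 minus vehicle). Marked spots left out afterwards, and vehicle 5 left out turned the sign of Scn2b -0.01, Kcnh1 -0.02, Kcnmb4 -0.03, Dlg2 -0.01 (AP5 minus vehicle). Marked spots included in normexp turned the sign of Cacna1b -0.04, Kcnmb4 0.00 (AP5 minus vehicle). Normexp on all spots, marked spots left out afterwards turned the sign of Cacna1b -0.04, Kcnmb4 0.00 (AP5 minus vehicle). Feature marks only left out turned the sign of Cacna1b -0.02 (AP5 minus vehicle). Feature marks only, and vehicle 5 left out turned the sign of Kcnh1 0.00, Kcnmb4 -0.02 (AP5 minus vehicle). Deposited LogRatio turned the sign of Kcnn2 0.21 (AP5 minus NVP), Kcnn2 0.60 (AP5 minus vehicle).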
